A study of Rattus norvegicus with 7 samples.

Results

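The step from postnatal day 5 (P5) to postnatal day 7 (P7) was examined in the retina of untreated Wistar WU rats, using 2 of the 7 age groups of the series, all of the same strain and tissue. The ages before them were P1 and P3, and those after them were P10, P15 and P21. Members were the features whose locus spans at least 50 bases, which kept 5006 of the 5491 features, or 3260 of 3530 genes. Of the 571 miRNA features, 493 were kept. Total RNA of 3 retinas per age was pooled before the small RNA library was made, and per the methods of the study each pool was sequenced 2 times on an Ion Torrent machine. The deposited table gives 1 value per feature and age, so there was no spread between animals, and no test between P5 and P7 was possible. Levels are FPKM, the mapped fragments divided by the length of the feature and by the size of the library, and a change is the difference of log2(FPKM + 1), P7 minus P5. A feature was counted as higher or lower at P7 when this change passed 2-fold, that is 1 on the log2 scale. In pooled tissue, fewer cells of a type and less RNA per cell cannot be told apart.

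In the rodent retina the last dividing progenitors leave the cell cycle during the first postnatal week, beginning in the centre, and give rise to rods, bipolar cells and Müller glia. The axons and synapses of the earlier born ganglion, amacrine and horizontal cells mature in the same days. miRNAs are short RNAs cut from hairpins that lower the output of mRNAs with sites matching their seed. The mir-17-92 family is known for driving proliferation, let-7 and mir-125 for the timing of progenitors, mir-124 for neuronal identity and the cluster of mir-183 and mir-96 for photoreceptors.

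Mature sequences of the miRNAs that the results turn on are shown 5′ to 3′ with the seed, bases 2 to 8, in capitals. They were taken from RefSeq with the GRCr8 assembly, where 281 of the 493 miRNA features found a match. The first set belongs to the mir-17-92 cluster at chr15:100179879-100180663 on the plus strand of Rnor_6.0, and shows 4 different seeds made by 1 transcript.
rno-miR-17-5p: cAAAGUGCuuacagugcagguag
rno-miR-20a-5p: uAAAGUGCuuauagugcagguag
rno-miR-18a-5p: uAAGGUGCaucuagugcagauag
rno-miR-19a-3p: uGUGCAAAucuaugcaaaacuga
rno-miR-19b-3p: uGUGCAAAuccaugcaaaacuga
rno-miR-92a-3p: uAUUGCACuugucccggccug

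The second set compares members of the mir-30 family, which share a seed and differ after it. The sequence of miR-30c-5p differs from those of miR-30a-5p and miR-30e-5p at 5 positions, counted over the shared length, and the first of them is position 13.
rno-miR-30a-5p: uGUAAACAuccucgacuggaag
rno-miR-30e-5p: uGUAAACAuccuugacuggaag
rno-miR-30c-5p: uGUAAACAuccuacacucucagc

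The third set holds let-7, mir-99 and mir-125 members. Mirlet7i stands alone in the genome, and the loci of the others lie in clusters whose members changed by different amounts in this step.
rno-let-7i-5p: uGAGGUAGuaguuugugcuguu
rno-let-7c-5p: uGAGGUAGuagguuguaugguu
rno-miR-99b-5p: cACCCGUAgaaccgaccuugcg
rno-miR-125a-5p: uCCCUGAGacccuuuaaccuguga
rno-miR-3588: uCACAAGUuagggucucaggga

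The last set gives miRNAs with large changes outside these families, known from muscle (miR-1b, miR-133b), from surface epithelium and lens (miR-205, miR-184) and from smooth muscle and pericytes (miR-143, miR-145). They are followed by miR-141, miR-375 and miR-211, whose loci rose, and by miR-204, the paralog of miR-211 with the same seed, whose locus did not.
rno-miR-1b: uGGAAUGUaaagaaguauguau
rno-miR-133b-3p: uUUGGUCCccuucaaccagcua
rno-miR-205: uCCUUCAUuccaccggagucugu
rno-miR-184: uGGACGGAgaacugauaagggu
rno-miR-143-3p: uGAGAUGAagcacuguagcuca
rno-miR-145-5p: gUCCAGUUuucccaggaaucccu
rno-miR-141-3p: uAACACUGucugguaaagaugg
rno-miR-375-3p: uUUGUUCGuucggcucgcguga
rno-miR-204-5p: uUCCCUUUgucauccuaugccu
rno-miR-211-5p: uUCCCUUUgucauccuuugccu

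The depth behind the values was estimated from the steps between low FPKM values. About 410529 alignments stood behind the P5 values and 575029 behind the P7 values, of which 261532 and 342337 lay on miRNA features. At P5, all 4318 low values were whole-number sums of 2 step sizes, and at P7 this held for 99.7% of 4418 low values. These shares are partly set in advance, because the value of 1 alignment at some lengths was chosen to make low values whole. Such values were divided into 2 parts, here called component 1 (the smaller step) and component 2. Each was scaled as an FPKM value of its own so that their mean is the deposited value. Whether these components are the 2 sequencings of a pool is not given in the sources used here. They are used below as the only within-age comparison that the data allow, and 212 of the 310 miRNA features with a mean of at least 20 alignments at P5 and P7 could be divided at both ages. In these, component 2 differed from component 1 by a median of -0.75 at P5 and 1.02 at P7 on the log2 scale, so the components of 1 age lay as far apart as many changes between the ages. The miRNAs with the highest levels could not be divided.

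Among the classes of noncoding RNA, miRNAs went mostly down and long transcripts mostly up, before any rescaling of the libraries. Of the 493 miRNA features, 77 were lower (15.6%) and 52 were higher (10.5%) at P7, with a median change of -0.24 (95% interval of the median over features -0.32 to -0.16). These 2 shares are the background for the counts of called miRNA loci below where no rescaling is named. Of all 5006 features, 558 were lower (11.1%) and 911 were higher (18.2%), with a median change of 0.13. Processed transcripts, which are spliced RNAs without an open reading frame, had the largest share of rises, with 156 higher and 47 lower of 645 features and a median of 0.42. Long intergenic RNAs (lincRNAs) had 567 higher and 315 lower of 2882 features, and snoRNAs, the guides of rRNA modification, had 65 higher and 34 lower of 377. Features of rRNA had 9 higher and 13 lower of 96, with a median of -0.42. Weighted by length, miRNAs made up 69.5% of the signal at P5 and 65.7% at P7, lincRNAs 7.74% and 9.5%, processed transcripts 1.98% and 2.93%, and snoRNAs 11.9% and 12.5%. The shares of the signal are parts of a whole, so a fall of 1 class raises the others. The changes in FPKM also carry any difference in total signal between the libraries. A factor of 1.26 on P7 was needed to match the miRNA totals, which includes any such difference. As the miRNA share fell only from 69.5% to 65.7%, most of this factor was a lower total signal of the kept features at P7. When P7 was scaled so that the miRNA totals matched, every change of a miRNA rose by 0.34 and the miRNA median became 0.10, so the general decline of miRNAs held only relative to the other classes.

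**Figure D1:**
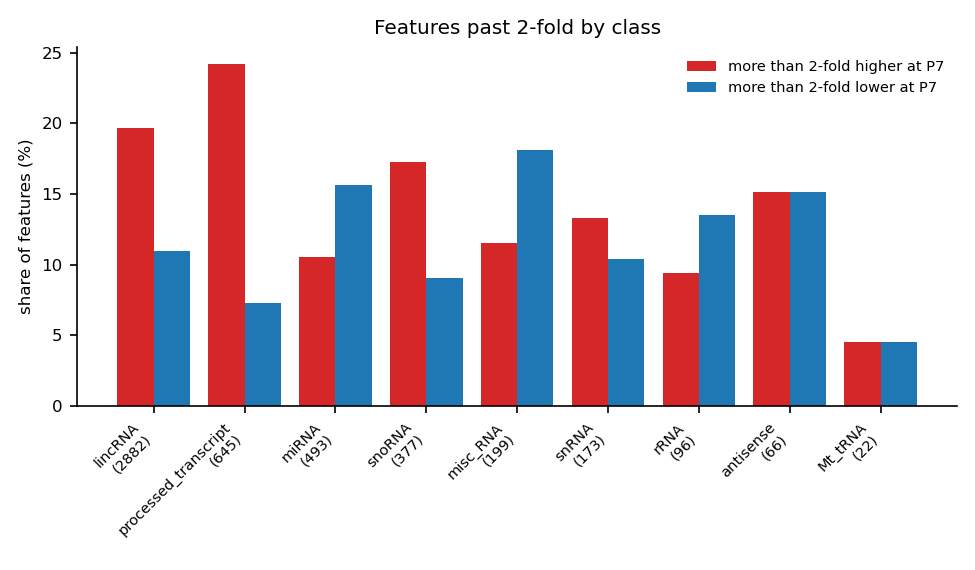
The share of features, in percent, that were more than 2-fold higher (red) or lower (blue) at P7 than at P5, for each class with at least 20 features, with the number of features in brackets. The red bar is above the blue one for lincRNAs and processed transcripts, and the blue bar is above the red one for miRNAs and rRNAs.

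With 20 or more alignments, 43 of 310 miRNA features were lower at P7 (13.9%) and 14 were higher (4.52%), against 132 (6.9%) and 163 (8.52%) of the 1914 features of every class that passed the same minimum. In the 212 miRNA features that could be divided, both components of P7 lay below both components of P5 in 38 (17.9%), above both in 21 (9.91%), and overlapped in 153 (72.2%). Of the 1404 features of all classes that could be divided, 12.3% lay below, 18.7% above and 68.9% overlapped. When each component was first centred on its own median, the balance turned, with 47 miRNA features below (22.2%), 64 above (30.2%) and 101 overlapping. Of the 43 lower miRNAs, 27 could be divided, and 18 of these had separate components while 9 overlapped. Of the 14 higher miRNAs, 11 could be divided, and all 11 had separate components. The minimum is a mean over both ages, so a feature can pass it through the age where it is high. The other steps of the series share their libraries with this one. From P3 to P5, 10.3% of miRNA features were lower and 12.4% higher, and from P7 to P10 18.7% were lower and 26.6% higher. From P10 to P15, 23.7% were lower and 11.8% higher, a larger share of falls than in the step to P7. The remaining steps had 16.4% lower and 15.8% higher from P1 to P3 and 9.53% lower and 29.8% higher from P15 to P21.

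**Figure D2:**
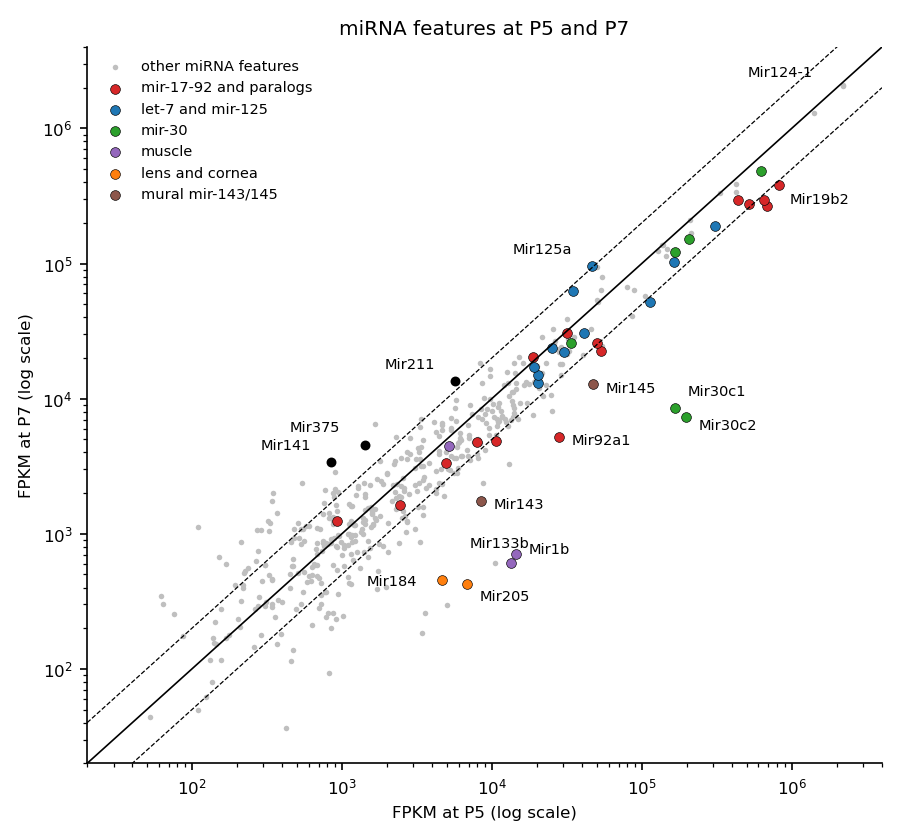
FPKM of each miRNA feature above 0 at both ages, at P5 (horizontal) and P7 (vertical), both on log scales. The solid line marks equal levels and the dashed lines mark 2-fold, and the coloured points of Mir30c1, Mir30c2, Mir133b, Mir1b, Mir205 and Mir184 lie far under the lower dashed line.

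Several miRNAs of proliferation were lower at P7. The list held the mir-17-92 cluster, its paralog clusters and Mir92b, which lies outside them. Of its 15 loci 6 were lower, among them Mir92b, and 0 were higher, against 15.6% and 10.5% of all miRNA features. The median of -0.90 stood below the -0.24 of all miRNA features. Mir19a had 871673, 648415 and 679053 FPKM from P1 to P5, 265861 at P7, and 416454, 225254 and 138951 from P10 to P21. It was lower at P3 than at P1, had a similar level at P3 and P5, dropped between P5 and P7 and recovered in part at P10. Its change was -1.35 (95% counting interval -1.42 to -1.28). Mir19b1 went from 655149 to 293601 and its X-linked copy Mir19b2 from 825417 to 380220 (-1.16 and -1.12), and these 2 loci give the same mature sequence and may share reads. The 3 loci with the mir-19 seed GUGCAAA were thus all lower by more than 2-fold.

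Mir92a1, the last hairpin of the same transcript, fell further, from 27897 to 5244 FPKM (-2.41, interval -2.80 to -2.04), and its P7 components were 4299 and 6190. It had 41650 FPKM at P1, 31617 at P3, 13936 at P10, 7737 at P15 and 6615 at P21. Its lowest value over the 7 ages was therefore that of P7. Mir92a2, with the same mature sequence, had 925 and 1235 FPKM from few alignments (0.42, interval -0.69 to 1.56). Mir18a went from 53496 to 22531 (-1.25). Mir20a went from 515906 to 276150 (-0.90) and Mir17, the first hairpin, from 31909 to 30684 (-0.06, interval -0.25 to 0.14). Within 1 primary transcript the changes thus ran from -0.06 to -2.41. Of the 5 loci with at least 20 alignments and the seed AAAGUGC, shared by miR-17, miR-20a, miR-93 and the mir-106 members, 0 passed 2-fold, nor did Mir20b (-0.57), which had fewer alignments, and the largest changes were -0.98 for Mir93 and -0.90 for Mir20a. Of the 5 with the seed AUUGCAC of miR-92a and miR-25 and at least 20 alignments, 3 were lower and all 5 were below 0, while Mir92a2, with the same seed and fewer alignments, was above 0. Mir92b went from 10655 to 4875 (-1.13), but its components, 16230 and 5079 at P5 against 2791 and 6959 at P7, overlapped. Once each component was centred on its median, those of P7 lay below those of P5. After scaling to the miRNA total, 2 of the 15 loci stayed past 2-fold lower, against 8.52% of all miRNA features, and 12 stayed below 0.

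**Figure D3:**
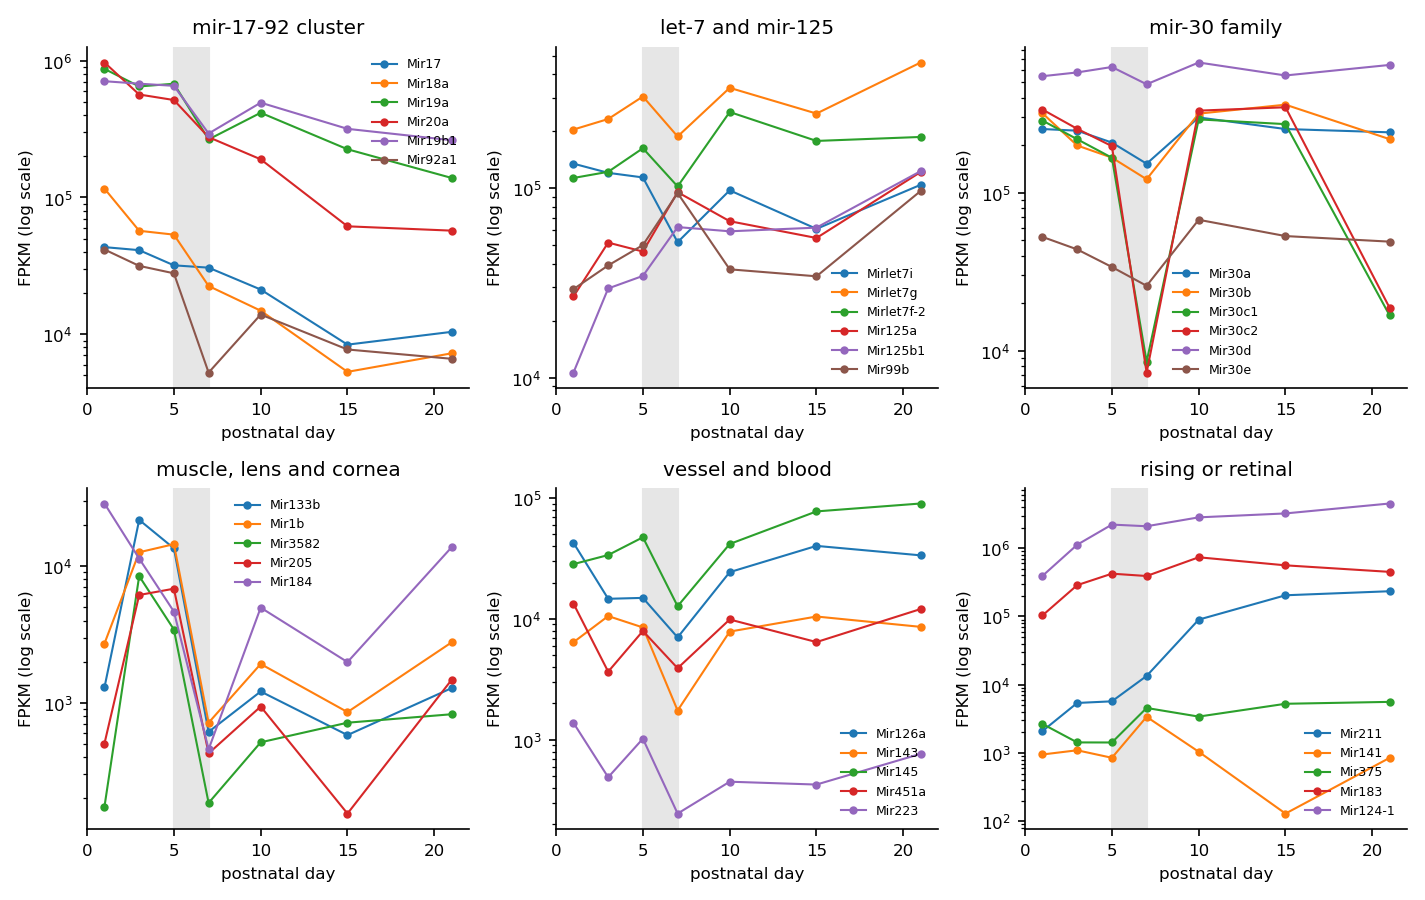
FPKM (log scale) of named miRNAs over postnatal days in 6 panels, with the interval from P5 to P7 shaded. Members of the mir-17-92 cluster decline with age, Mir30c1 and Mir30c2 dip at P7 and return at P10, and Mir125a rises while Mirlet7i falls.

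The cluster of mir-322 and mir-503 on the X chromosome, known to restrain the cell cycle in differentiating muscle, had 2 of 4 loci lower, with a median of -1.05, against 15.6% lower among all miRNA features. Under each of the 3 other scalings 1 of the 4, Mir503, stayed lower. Mir503 had 25733, 8720 and 8760 FPKM from P1 to P5, 2389 at P7, and 2462, 704 and 949 from P10 to P21. After the earlier fall from P1 to P3 it dropped again in this step and stayed low. Its components were 10109 and 7410 at P5 and 2153 and 2625 at P7, which did not overlap. Mir322 went from 5597 to 2832 (-0.98) and Mir542 from 3452 to 1582 (-1.12), and their components did not overlap either. Once each component was centred on its median, those of Mir542 overlapped. The build holds further copies of these genes, and rno-mir-503-1, the copy of Mir503, had -1.97, but reads of near-identical copies cannot be told apart.

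The next families linked to the cell cycle had 0 loci lower by more than 2-fold, unlike the cluster above. The first of them had a median of -0.65, which was below the -0.24 of all miRNA features. The 4 loci of the mir-34 and mir-449 family, targets of p53 that favour exit from the cycle, all had lower levels at P7, from -0.84 for Mir34b to -0.18 for Mir449a, and 0 of them passed 2-fold. The mir-15/16 family had 1 higher and 0 lower of 4. Mir15b had 104909 FPKM at P5 and 57863 at P7 (-0.86), while its neighbour Mir16 on the same transcript had 211170 and 208863 (-0.02). Mir497 passed 2-fold upward (1.84), but with 3 alignments at P5 its interval was 0.01 to 4.28.

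Among the developmental timing miRNAs, 1 of 9 let-7 loci was lower and 1 of 2 mir-125 loci was higher. The 9 let-7 loci had changes below 0, from -0.09 for Mirlet7c-2 to -1.14 for Mirlet7i, which alone passed 2-fold. Mir98, which shares the let-7 seed, changed by -1.15. Mirlet7i had 135139, 120857 and 114289 FPKM from P1 to P5, 52009 at P7, and 97694, 61160 and 104487 from P10 to P21. The value of P7 was the lowest of the 7. Mirlet7g, the let-7 locus with the highest level, went from 305698 to 188037 (-0.70). After scaling to the miRNA total 7 of the 9 stayed below 0 and 0 passed 2-fold.

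Mir125a had 26880, 51748 and 46426 FPKM from P1 to P5, 95532 at P7, and 67135, 54736 and 122091 from P10 to P21. It was higher at P7 than at the ages on either side, and its change was 1.04 (interval 0.90 to 1.18). Mir125b1 went from 34521 to 62497 (0.86, interval 0.70 to 1.02). Mir99b went from 50213 to 94470 (0.91) and Mir99a from 54344 to 79862 (0.56), while Mir100 had 6990 and 6348 (-0.14). miR-99 and miR-100 are known to lower Igf1r and mTOR. No component of these miRNAs could be divided except for Mir100, where they overlapped.

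These families sit together in 3 clusters, and the same order held in each. In the cluster on chromosome 1, Mir125a changed by 1.04, Mir99b by 0.91 and Mir3596c, the locus opposite let-7e, by -0.31. On chromosome 11, Mir3588 changed by 1.14, Mir99a by 0.56 and Mirlet7c-1 by -0.16. On chromosome 8, Mir125b1 changed by 0.86, Mir100 by -0.14 and Mir3596a, the locus opposite let-7a-2, by -0.47. The mature sequence of Mir3588 is the reverse complement of that of miR-125b over 22 bases. Whether the counting used strand is not given in the sources used here, so reads of a locus and of its opposite strand cannot be told apart. Reads of miR-125b may count at both Mir3588 and Mir125b1, so the clusters on chromosomes 11 and 8 may not be independent. Differences between members of a cluster do not depend on how the libraries are scaled, and the mir-125 locus was above the let-7 locus by more than 1 on the log2 scale in all 3.

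The largest fall among miRNAs with at least 20 alignments was that of mir-30c. Mir30c2 had 335884, 253627 and 197044 FPKM from P1 to P5, 7271 at P7, and 330539, 347172 and 18663 from P10 to P21. Mir30c1, on another chromosome, had 286049, 217926, 166388, 8510, 290932, 271521 and 16709 FPKM at the same ages. Both loci were low at P7 and P21 and high at the other 5 ages. Their changes from P5 to P7 were -4.76 (interval -5.00 to -4.53) and -4.29 (interval -4.49 to -4.09). The P7 components were alike, 6090 and 8453 for Mir30c2 and 8358 and 8662 for Mir30c1, so the low level was present in both. As the 2 loci give the same mature sequence, they may share reads and are not independent.

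The other 4 mir-30 loci, which restrain epithelial to mesenchymal transition in several tissues, did not follow. Mir30d had 624301 FPKM at P5 and 485376 at P7 (-0.36), and Mir30a, which lies in the same primary transcript as Mir30c2 on chromosome 9, had 207530 and 152540 (-0.44). Mir30e, beside Mir30c1 on chromosome 5, had 33862 and 25749 (-0.40), and Mir30b had 166673 and 121628 (-0.45). In both pairs of neighbours, only the mir-30c locus passed 2-fold.

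Muscle miRNAs were the next to fall. Mir133b had 1296, 21836 and 13522 FPKM from P1 to P5, 612 at P7, and 1209, 580 and 1280 from P10 to P21. Mir1b had 2715, 12650, 14500, 715, 1923, 854 and 2769 FPKM at these ages. Both were high at P3 and P5 only, and their changes in this step were -4.46 and -4.34. AABR07054963.1, which lies close to Mir1b on chromosome 3, went from 10573 to 605 (-4.13). Mir3582, whose product is complementary to miR-133a over 21 bases and to miR-133b over 20, went from 3439 to 185 (-4.21). The last muscle miRNA, Mir499, had 5179 and 4437 (-0.22). Mir205, known from cornea and other surface epithelia, went from 6843 to 426 (-4.0), and Mir184, known from lens and cornea, from 4653 to 456 (-3.35).

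The components showed that the P5 signal of these miRNAs was uneven. Mir133b had 1604 FPKM in component 1 and 25439 in component 2 at P5, Mir1b had 1921 and 27079, AABR07054963.1 had 1446 and 19700, and Mir3582 had 798 and 6080. Mir205 had 142 and 13544, from 1 and 48 alignments. These 5 features had the largest excess of component 2 at P5 among the 212 miRNAs that could be divided, between 2.93 and 6.56 on the log2 scale, and the next was 1.53. At P7 their components ranged from 0 to 915 FPKM. Against component 1 of P5 the falls were smaller, and Mir205 overlapped. Mir184 differed, with 5941 and 3364 FPKM at P5 and 574 and 339 at P7, low in both P7 components and high in both of P5. In sum, 2 of 3 muscle miRNAs were lower, with a summed level of 33200 FPKM at P5 and 5764 at P7. Both lens and cornea miRNAs were lower, with 11496 and 882 FPKM. Among all miRNA features 15.6% were lower. Retina holds no striated muscle or surface epithelium, and the part of neighbouring tissue in these values was not tested.

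**Figure D4:**
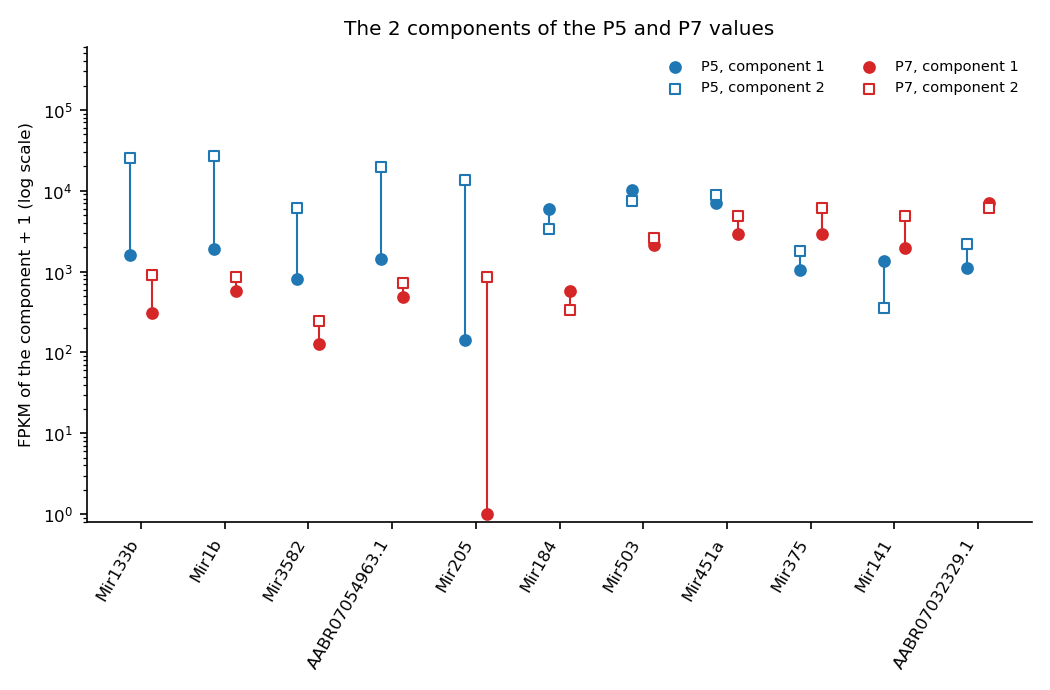
The 2 components of the P5 (blue) and P7 (red) values, FPKM + 1 on a log scale, for 11 named miRNAs, with a line joining the components of an age. The P5 components of Mir133b, Mir1b, Mir3582, AABR07054963.1 and Mir205 lie far apart, while those of Mir184 and Mir503 lie close together and above both P7 values.

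Both mural loci, the endothelial locus and 1 of 2 red cell loci were lower at P7, against 15.6% of all miRNA features. Only the mural loci kept the call under rescaling. Mir145, the miRNA of smooth muscle and pericytes, had 28388, 33738 and 47315 FPKM from P1 to P5, 12733 at P7, and 41643, 77456 and 90032 from P10 to P21. Mir143 from the same transcript had 6414, 10555, 8498, 1747, 7854, 10464 and 8595 FPKM. Both had their lowest value at P7, with changes of -1.89 (interval -2.15 to -1.64) and -2.28 (interval -2.63 to -1.94), and the P7 components, 8598 and 16868 for Mir145 and 1548 and 1946 for Mir143, were all below the P5 value. Their P5 values could not be divided, so whether the components of the 2 ages overlap could not be checked. Mir126a, the locus listed for endothelium, went from 14922 to 7031 (-1.09), and its only matched mature sequence was that of miR-126b. Mir451a of red cells went from 7945 to 3910 (-1.02), with components of 7080 and 8811 at P5 and 2893 and 4927 at P7, and Mir144 from the same cluster had 1026 and 826 (-0.31). Of 5 white cell and microglial miRNAs, 2 were lower and 0 higher, against 15.6% and 10.5% of all miRNA features. Only 1 of the 5 had a mean of at least 20 alignments. The 2 lower ones were Mir223 (-2.05, interval -3.76 to -0.55) and Mir150 (-1.43, interval -2.92 to -0.05), both with about 13 alignments at P5. The other 3 were above 0, namely Mir142 with 533 and 837 FPKM (0.65), Mir146a (0.92) and Mir146b (0.09). The median of the 5 was 0.09. After scaling to the miRNA total, Mir143 and Mir145 remained past 2-fold lower, and Mir126a and Mir451a did not.

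Neuronal miRNAs were nearly level, apart from a few. The 3 loci of mir-124 had the highest values of the miRNA features, and Mir124-1 had 391668, 1.12e+06 and 2.21e+06 FPKM from P1 to P5, 2.09e+06 at P7, and 2.82e+06, 3.22e+06 and 4.5e+06 from P10 to P21. Its rise over the 3 weeks paused in this step (-0.08). Of 13 neuronal loci, 2 were lower and 0 higher, about the share of lower loci among all miRNA features (15.6%). Mir153, which targets synuclein and synaptic vesicle genes, went from 1732 to 533 (-1.70), with components of 2816 and 647 at P5 that overlapped those of P7. Once each component was centred on its median, those of Mir153 no longer overlapped. Mir137, an inhibitor of neural progenitor growth, went from 1766 to 841 (-1.07). The activity-induced pair Mir212 and Mir132 had 2848 and 5141 FPKM (0.85) and 922 and 1477 FPKM (0.68), and the components of Mir212 were 3372 and 2325 at P5 and 4212 and 6070 at P7, which did not overlap. Mir138-1 and Mir138-2 changed by 0.38 and 0.47. The median of the 13 was -0.11, but after scaling to the miRNA total it was 0.23, 10 of the 13 were above 0, and 1 was lower and 2 were higher by more than 2-fold.

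The study also followed the mir-135 and mir-218 families. All 4 of their loci had lower levels at P7, with a median of -0.90, and 1 passed 2-fold. This was Mir3565, whose product is complementary to that of mir-218 (1501 to 669 FPKM, -1.17). Mir218-2 had 6570, 8733 and 4632 FPKM from P1 to P5, 2352 at P7, and 12427, 22103 and 10479 from P10 to P21. Mir135a had 14328, 12887, 8365, 4735, 21524, 10039 and 11598 FPKM. Both had their lowest value at P7. The components of Mir3565, Mir218-2 and Mir135a did not overlap between the ages, and those of Mir135b (-0.46) did. Once each component was centred on its median, those of Mir135a overlapped as well. After scaling to the miRNA total, all 4 stayed below 0 and 0 passed 2-fold.

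Photoreceptor and pigment epithelium miRNAs differed within families. Mir183 had 422301 FPKM at P5 and 390263 at P7 (-0.11), and Mir96 had 45703 and 32655 (-0.48), before values of 733716 and 281916 at P10. Mir204 had 148323 and 127711 (-0.22). Its paralog Mir211, from an intron of the melanocyte gene Trpm1 that bipolar cells also express, had 2090, 5397 and 5703 FPKM from P1 to P5, 13414 at P7, and 89610, 203804 and 233594 from P10 to P21. The step to P7 (1.23, interval 0.97 to 1.5) was the start of its main rise. The mir-181 family of the inner retina had 0 of 5 loci past 2-fold and a median of -0.01, and the 2 loci of mir-29 had -0.47 and -0.39. Of the mir-26 and mir-101 loci 0 of 3 passed 2-fold, as did 0 of 5 of the mir-23/27/24 loci, where Mir27a changed by -0.89 and Mir27b by 0.31. In the mir-7 family, 1 of 3 was higher, Mir7b (1.83), from 3 alignments at P5.

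**Figure D5:**
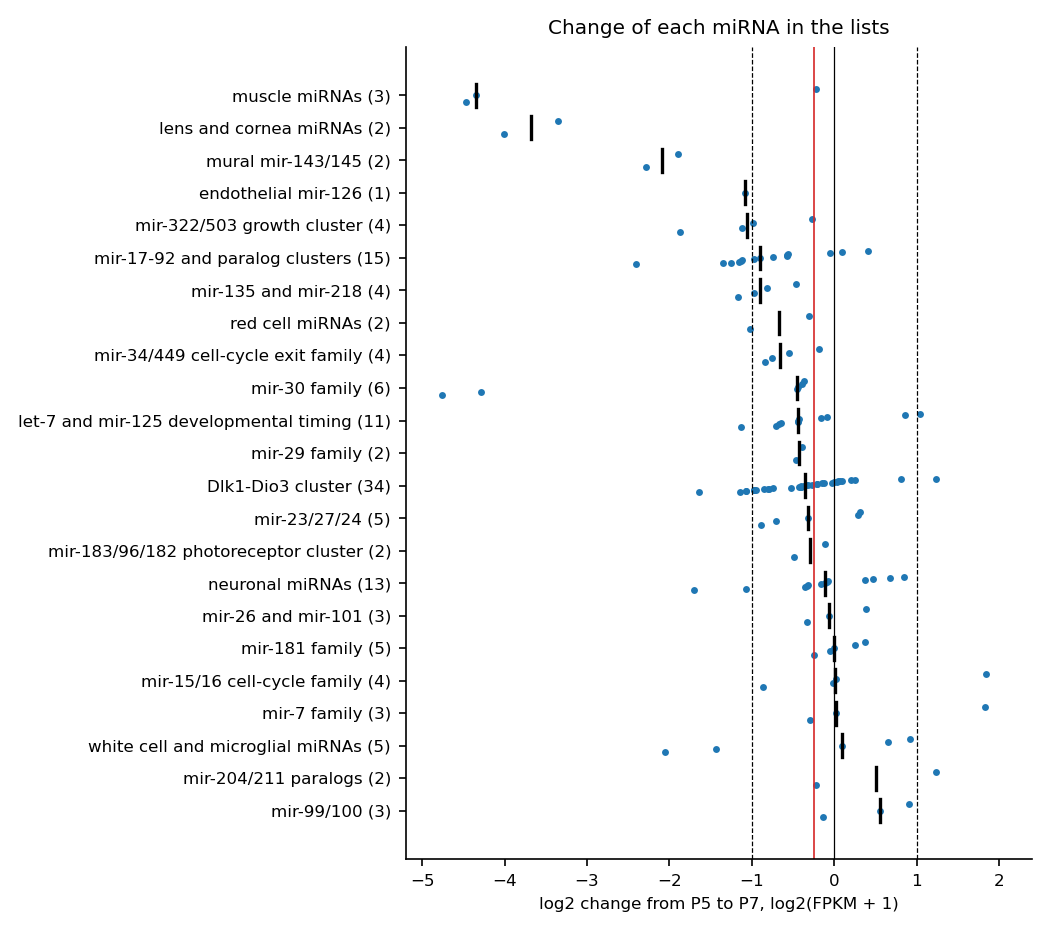
The log2 change from P5 to P7 of each miRNA (points) in 23 lists, with the median of each list as a black bar, the number of members in brackets, the median of all miRNA features as a red line and 2-fold as dashed lines. The medians of the muscle, lens and cornea, and mural miRNAs lie furthest to the left, and mir-99/100 and Mir211 with its paralog furthest to the right.

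The imprinted Dlk1-Dio3 cluster on chromosome 6, whose miRNAs are active in neurons, had 4 of 34 loci lower and 1 higher, with a median of -0.36, a smaller share of lower loci than the 15.6% of all miRNA features. After scaling to the miRNA total 1 was lower and 2 were higher, and the median was -0.02. Mir494 went from 25354 to 8096 FPKM (-1.65), with components of 31630 and 19079 at P5 and 6816 and 9375 at P7. Mir541 changed by -1.15 with separate components, and Mir134, known to act in dendrites, and Mir341 by -1.07 each with components that overlapped. Once each component was centred on its median, those of Mir134 no longer overlapped and those of Mir341 still did. The higher locus, Mir540, had 508 and 1200 FPKM (1.24, interval -0.97 to 4.46).

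The largest rises with at least 20 alignments came from low to moderate levels. Mir141 of the epithelial mir-200 family had 949, 1094 and 849 FPKM from P1 to P5, 3382 at P7, and 1042, 129 and 848 from P10 to P21. It stood out at P7 alone (1.99, interval 1.20 to 2.87), with components of 1344 and 355 at P5 and 1938 and 4826 at P7. Mir375, known from neuroendocrine cells, had 2662, 1427, 1423, 4558, 3408, 5250 and 5599 FPKM at the 7 ages and kept its higher level (1.68, interval 0.77 to 2.71). Its components were 1055 and 1792 at P5 and 2954 and 6163 at P7. Further rises past 2-fold with a gene name were Mir211, Mir3588, Mir125a, Mir1199 (1.09) and Mir190b (1.07), and the last of these went on from 7105 FPKM at P7 to 49524 at P10.

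Among the 10 largest rises, 6 were predicted loci that carry clone names. AABR07002262.1 had 542 FPKM at P5 and 2386 at P7 (2.14), and AABR07032329.1 had 1668 and 6538 (1.97), with components of 1118 and 2217 at P5 and 7020 and 6057 at P7. At P10 they had 511 and 2990 FPKM. AABR07016633.1 (1.68), AABR07054845.1 (1.69), AABR07049535.1 (1.17) and AC120448.1 (1.15) completed the group. The components of all 6 were separate, but some P5 values rested on few alignments. AABR07002262.1 and AABR07054845.1 had about 5.46 and 5.41 at P5 and passed the minimum through 34.8 and 34.7 at P7. Their intervals were 0.82 to 3.76 and 0.37 to 3.32. AABR07032329.1 and AABR07016633.1 had about 12.6 and 10.7 alignments at P5. Without a minimum of alignments, 30 of 183 loci with clone names were higher and 19 lower (median 0.05), against 22 higher and 58 lower of 307 loci with miRNA names (median -0.35).

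Properties of the hairpins varied with the change. Over 199 miRNA features with at least 20 alignments and a RefSeq hairpin, the change was correlated with the GC content of the hairpin (Spearman rho 0.29 across features, which share both libraries and are not independent replicates). The third with the lowest GC content had a median change of -0.55 and 17 of 66 lower, and the third with the highest had -0.16 and 9 of 67 lower. The same correlation was 0.21 from P1 to P3, 0.06 from P3 to P5, -0.34 from P7 to P10, near 0 from P10 to P15 and 0.27 from P15 to P21, and the steps share libraries. The part of base composition in the changes was not tested.

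In the other classes, named features showed changes of similar size. Among snoRNAs, SNORD41 went from 82182 to 23663 FPKM (-1.80) and SNORD44 from 6389 to 23604 (1.89), the latter with components of 6418 and 6360 at P5 and 11309 and 35898 at P7. The snoRNA snopsi28S-3327, which guides pseudouridylation of 28S rRNA, went from 178 to 883 (2.30), and SNORD123 from 1790 to 659 (-1.44). Among mitochondrial tRNAs, AY172581.15 went from 144142 to 48550 (-1.57) and AY172581.3 from 67369 to 167888 (1.32), while the other 20 stayed within 2-fold. A U4 copy of the spliceosome went from 4519 to 736 (-2.62) and a U2 copy from 1728 to 7302 (2.08), with components of 2999 and 457 at P5 and 4132 and 10472 at P7.

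The lincRNAs AABR07011996.1 (971 to 92 FPKM, -3.39) and LOC100910750 (896 to 143, -2.64) were lower, and AABR07070775.1 (225 to 1277, 2.50) and AABR07027010.2 (67.4 to 316, 2.21) were higher. The P7 value of AABR07070775.1 came mostly from component 1, with 2329 against 226 FPKM, and its components overlapped those of P5. Processed transcripts of the collagen gene Col6a3 (694 to 236, -1.55) and of the matrix gene Hmcn2 (147 to 50.7, -1.52) were lower, and those of the calcium channel gene Cacna1i (50.4 to 247, 2.27) and of Vom2r3 (137 to 642, 2.22) were higher. Copies of 7SK RNA were found at both ends, with -2.73 and 1.58, and so were copies of U6 (-1.19 and 1.93). Among 5S rRNA copies the largest rises were 1.16 and 1.20. Copies of 5.8S rRNA fell by 1.74 and 1.32. Copies of these repeated genes may share reads, so their separate values are uncertain.

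At the length limit, the 70 features of 50 to 54 bases had median levels of 1039 FPKM at P5 and 1374 at P7, and the 49 features of 45 to 49 bases, left out here, had 1737 and 2214.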

How the data were processed

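Small RNA of pooled retinas was sequenced at 7 ages, with 1 value per age. The authors trimmed the reads, mapped them to Ensembl noncoding RNAs (Rnor_6.0 per the labels), ran Cufflinks, Cuffmerge and Cuffdiff 2.2.1.3, and deposited FPKM values with comparisons of 21 pairs of ages. The fold changes, statistics and p-values of those comparisons were not used. With 1 library per age, no test was run. Members and lists were chosen with earlier results of these data known.

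Changes used log2(FPKM + 1) at loci of 50 bases or more. The value of 1 alignment was found from low P1 values for 218 of 682 feature lengths, and for 416 after adding lengths near them that made low values whole. The rest were interpolated. P5 and P7 values under 200 steps were divided into whole numbers of 2 step sizes, whose ratios were 1.98 and 1.48. Intervals of changes are exact conditional 95% intervals of a ratio of counts, cover counting error only and leave out variation between animals. On simulated P5 and P7 data for the 5006 features, 96% of 200 changed features had the true change in the interval. The simulated components of an age differed by counting error only, while those of the data lay further apart. This coverage therefore checks the calculation and does not show that the intervals hold for the real values.

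Features named were all list members with a result, the 10 largest rises and falls among miRNA features with a mean of at least 20 alignments, the 10 highest levels, and 2 rises and 2 falls of each other class with 10 or more features. Mir98, Mir1199, Mir190b, the opposite-strand loci, rno-mir-503-1, GC content and the components were added after values were seen. A withheld family is not reported here. Alternatives were TMM (30% and 5% trimmed) or median-of-ratios scaling and equal miRNA totals, pseudocounts of 0.1 and 10, filters, length limits of 0 and 70, and 1.5-fold and 4-fold limits. Python 3.11.15, numpy 2.4.6, pandas 2.3.3, scipy 1.17.1 and matplotlib 3.10.9 were used.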

Additional observations from a re-analysis of the deposited data

Results flagged for a closer look

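Mir206 and Mir450a1 lay on loci shorter than 50 bases and entered no comparison, but had signal. Mir206, a muscle miRNA next to Mir133b on chromosome 9, has a locus of 27 bases and was listed at 72154 FPKM at P5 and 3513 at P7, a change of -4.36. Mir450a1 of the cluster of mir-322 and mir-503 has a locus of 36 bases and was listed at 11232 FPKM at P5 and 1692 at P7, a change of -2.73. The values at such short loci rest on about 58.8 and 17.9 alignments at P5. All 485 short loci together held 10.4% of the length-weighted signal at P5 and 15.1% at P7.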

How the results depend on the processing

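No paired analysis was possible because each age has 1 library, and no replicate could be left out for the same reason. The counts of miRNA features past 2-fold, 52 higher and 77 lower, moved with the scaling, the fold limit and the minimum of alignments. Scaling to the miRNA total gave 79 higher and 42 lower, and median-of-ratios and TMM scaling gave 44 and 45 lower. The median change of miRNA features, -0.24, turned to 0.10, 0.024 and 0.022 under these scalings, which shift every change by 0.34, 0.27 and 0.26, and it was -0.33 with at least 20 alignments, where 14 were higher and 43 lower. A limit of 1.5-fold gave 92 higher and 152 lower, one of 4-fold gave 19 and 19, and a locus length of at least 70 gave 31 higher. Over all features, 911 higher and 558 lower became 1416 and 329 with the miRNA total, and 359 and 360 were lower with the other scalings. They became 1569 and 1088 at 1.5-fold and 303 and 123 at 4-fold, and 571 were higher with a mean of at least 100 FPKM. Pseudocounts of 0.1 and 10 moved no count by more than 1.5 times. The miRNA share of the signal, 69.5% at P5 and 65.7% at P7, was 72.7% and 70.05% as a share of summed FPKM and 64.0% and 58.9% with no minimum length.

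The components were compared after seeing the data. Over the 212 miRNA features that could be divided, 11 were higher and 27 lower, with a median of -0.31. Component 1 of P7 against component 1 of P5 gave 6 higher, 123 lower and a median of -1.19, and against component 2 of P5 it gave 20 and 57. Component 2 of P7 against component 1 of P5 gave a median of -0.16, and against component 2 of P5 it gave 81 higher, 12 lower and a median of 0.66. The cause was not tested. Of the lists, 18 of 23 had a median below 0, and 13, 15 and 15 did under the scalings. Of 146 named miRNA features, 44 were past 2-fold and 31 stayed so under each scaling. Depth limits the rarer miRNAs, as 183 of the 493 had a mean under 20 alignments.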
